A study of Mus musculus with 6 samples.

Results

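MHC class II genes encode the proteins that load peptides from ingested material and show them to CD4+ T cells. The 8 genes described here were taken by symbol as the core of that route, by a rule that uses no measured value, though with earlier results of these data known: H2-Aa, H2-Ab1, H2-Eb1, H2-DMa, H2-DMb1, H2-DMb2, Cd74 and Ciita. All 8 are among the 17460 rows of the deposited table, and all 8 passed the filter on low values that left 17297 genes for testing. The table holds whole-liver RNA from 6 C57BL/6 mice, 3 control and 3 Blnc1 LKO (liver-specific knockout of the long noncoding RNA Blnc1), which were 9 months old according to the labels and had eaten a NASH diet (D09100301, rich in fructose, trans fat and cholesterol) for 24 weeks. The question of the comparison was how loss of Blnc1 from the liver alters its transcriptome under this diet. By the study's methods, LKO mice carry a Cas9 transgene and received through the tail vein an adenovirus with a pair of sgRNAs against Blnc1. Control mice are called WT in the column labels. Whether those of this diet cohort carried Cas9, and which virus they received, is not spelled out in the sources used here. In the paper's high-fat diet cohort, both groups were Cas9 transgenic and the controls received GFP adenovirus. The adenovirus reaches hepatocytes and transduces non-parenchymal liver cells poorly, which limits the LKO liver as a model for genes of immune cells.

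In the classical class II molecule an alpha chain and a beta chain pair in the endoplasmic reticulum around the invariant chain, encoded by Cd74, which fills the groove and leads the complex to endosomes. There proteases trim the invariant chain, and the H2-DM heterodimer removes the remaining fragment so that peptides can bind. Ciita encodes the coactivator that switches these genes on. It does not bind DNA itself but joins factors sitting on paired promoter elements, the X and Y boxes. Dendritic cells, B cells, macrophages and Kupffer cells are the usual class II cells of the liver, and interferon gamma is the best known inducer of Ciita in other cells.

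The values are read counts divided by a size factor per liver, and no value of any member was 0. Reads on listed genes ranged from 65384969 to 89350181 per liver, and the lowest total was that of Blnc1 LKO liver 1. This liver stood apart from the others: it held the lowest value of the 6 for 24.1% of the tested genes, against 11.2% to 18.5% for each other liver, and the highest value for 25.5%, against 12% to 17.7%. The members' differences are therefore given with and without it. Hepatocyte markers were abundant in every liver, with Alb, the serum albumin gene, at 3780900 to 4651990. Blnc1 has no row of its own. Paqr9, for which RefSeq lists Blnc1 as a synonym, averaged 16972 ± 1827 over control livers and 17986 ± 2196 over Blnc1 LKO livers (SD, n = 3 per group, adjusted p = 0.978, limma), so no row shows whether Blnc1 was lost.

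The 6 H2 genes are within the major histocompatibility complex on chromosome 17 (GENCODE M21, GRCm38). By lowest coordinate, H2-DMa is at 34119541, H2-DMb2 at 34143307, H2-DMb1 at 34153072, H2-Ab1 at 34257689, H2-Aa at 34282744 and H2-Eb1 at 34305867. H2-Eb1 ends at 34316674. H2-Aa is on the - strand and so starts at 34287823, and the other H2 members and Ciita are on the + strand. Ciita spans 10480059 to 10528418 on chromosome 16. H2-DMa overlaps Brd2 and Ciita overlaps Dexi on the opposite strand, H2-Eb1 overlaps the antisense gene Gm20513, and Cd74 contains Mir5107. The library kit does not mark strand, so reads in the shared stretches cannot be assigned to either gene. H2-DMb1 and H2-DMb2 are near copies. Their longest coding transcripts agree at 94.6% of 1219 aligned bases and share 369 stretches of 50 bases, 27.2% of those of H2-DMb1 and 21.2% of those of H2-DMb2, and their separate counts are uncertain to that extent.

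Because these genes are known for a common promoter layout, the upstream sequence of 4 of them is shown (RefSeq, GRCm38.p6). RefSeq windows of 250 bases before to 50 after the start were at hand for 5 members, in 6 windows: H2-Aa, H2-Eb1, H2-DMb1, H2-DMb2 and H2-DMa with 2. Capitals mark the letters searched for on both strands: ATTGG (the inverted CCAAT of the Y box), GCAAC, GATGATGCT (letters of the X box region) and TGACGTCA. The longer TGATTGG was searched as well, and GATGATGCT and TGATTGG were picked after the sequences were seen.
H2-Aa, chr17:34287857-34287916, - strand: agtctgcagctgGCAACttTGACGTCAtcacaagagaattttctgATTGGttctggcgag
H2-Eb1, chr17:34305763-34305822, + strand: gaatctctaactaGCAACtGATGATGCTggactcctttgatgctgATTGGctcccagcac
H2-DMb2, chr17:34145114-34145173, + strand: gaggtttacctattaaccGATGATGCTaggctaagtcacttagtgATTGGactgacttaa
H2-DMb1, chr17:34153093-34153122, + strand: cctagtaactGATGATGCTaggctgattca
The H2-DMb1 run is limited to 30 bases because GENCODE places an exon of the gene over it, from 34153072. RefSeq has that run upstream of the start. The H2-DMb2 run overlaps no GENCODE exon, but it lies inside the GENCODE span of H2-DMb2, from 34143307 to 34151555.

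GATGATGCT was present in 3 of the 6 windows (H2-Eb1, H2-DMb1, H2-DMb2) and in 0.274% of all 32851 RefSeq windows of that length. TGACGTCA was in the H2-Aa window and in 1.79% of all windows. TGATTGG, which contains ATTGG, was in the windows of H2-Aa, H2-Eb1, H2-DMb1 and H2-DMb2 and in 7.82% of all windows. The shorter ATTGG (37.4% of all windows) was also in a window of H2-DMa, and GCAAC (35.2%) was in windows of H2-Aa, H2-Eb1 and H2-DMa. The near copies H2-DMb1 and H2-DMb2 thus carry the same 9 letters at this place, although their levels were far apart, as described next. These matches describe letters in a window and not bound sites.

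Levels were compared between genes as RPKM, the reads per kilobase of the longest coding transcript scaled to the reads of the liver on listed genes. Cd74, the invariant chain, stood first at 553 RPKM averaged over the control livers and 487 over the Blnc1 LKO livers. The classical chains followed, with H2-Aa (the I-A alpha chain) at 332 and 301 RPKM, H2-Ab1 (the I-A beta chain) at 233 and 200 and H2-Eb1 (the I-E beta chain) at 182 and 159. The peptide-editing H2-DM chains were at a much lower level, H2-DMb1 at 18.3 and 16.7 RPKM and H2-DMa at 15.1 and 13.3. Ciita, the coactivator, was at 2.22 and 1.84 RPKM, and H2-DMb2 was lowest at 0.814 and 0.715. This order held within each of the 6 livers, and no neighbours in it overlapped over the control livers. Over the Blnc1 LKO livers the ranges of Cd74 and H2-Aa, H2-Aa and H2-Ab1, H2-Ab1 and H2-Eb1, and H2-DMb1 and H2-DMa overlapped. The order of the classical chains depends on the length used: per kilobase of all exons joined, over the 6 livers, it was H2-Eb1 (146 RPKM), H2-Ab1 (102) and H2-Aa (93.9), with Cd74 (437) still first.

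All 8 members had a lower mean log2 value in Blnc1 LKO than in control livers, where 50.4% of all tested genes did, but none of the differences exceeded the spread between livers. No member passed an adjusted p under 0.05 in limma, none reached an unadjusted p under 0.05, and for none did the values of the groups stay apart. Over all genes 0.00578% passed the adjusted threshold, a single gene (Hamp, the iron hormone hepcidin), 2.74% were lower at an unadjusted p under 0.05 and 5.28% were lower without overlap of the groups. The median log2 fold change of the members was -0.20, beside 0.00 over all genes. Without Blnc1 LKO liver 1 the members' median was -0.04. DESeq2 on the recovered reads also called 0 of the 8 members, and 0.538% of the genes it tested. The p-values set each group difference against the spread between these mice, which limma and DESeq2 estimate partly from other genes. An exact permutation test of 3 against 3 livers cannot go below p = 0.1.

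Of the classical chains, H2-Aa had normalised read counts of 27680.4, 26643 and 29144 in the control livers, against 20086, 29092 and 26233 in the Blnc1 LKO livers. Blnc1 LKO liver 1 was the lowest of the 6, and Blnc1 LKO liver 2 was within the range of the controls. The means were 27823 ± 1257 and 25137 ± 4602 (SD, n = 3 each). The log2 fold change was -0.16 with a 95% interval of -0.44 to 0.12 (adjusted p = 0.969, limma), and -0.01 without Blnc1 LKO liver 1.

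H2-Ab1 was at 21298, 19991 and 21692 in control livers and at 13776, 20776 and 19326 in Blnc1 LKO livers. Here too liver 1 of the LKO group was far under the rest, liver 3 was just under the lowest control and liver 2 was among the controls. The log2 fold change was -0.25 (95% interval -0.56 to 0.06, adjusted p = 0.930, limma), and -0.07 without Blnc1 LKO liver 1. H2-Eb1, whose control values were the most even of the members (22289, 22239 and 23046), was at 15391, 22697 and 21088 in the Blnc1 LKO livers. The log2 fold change of H2-Eb1 was -0.21 (95% interval -0.50 to 0.08, adjusted p = 0.945, limma) and -0.04 without liver 1.

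The same arrangement of livers was seen for the invariant chain gene, which spans 60803848 to 60812652 on the + strand of chromosome 18. Cd74 had 57890, 55874 and 60098 in control livers and values of 39607, 58319 and 54947 in Blnc1 LKO livers, with means of 57954 ± 2113 and 50958 ± 9974 (SD, n = 3 each). The log2 fold change was -0.21 (95% interval -0.51 to 0.10, adjusted p = 0.951, limma), and -0.03 without Blnc1 LKO liver 1.

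Of the H2-DM genes, the alpha chain H2-DMa was at 2279, 2109 and 2360.3 in control livers and at 1515, 2274 and 2151 in Blnc1 LKO livers (log2 fold change -0.20, 95% interval -0.52 to 0.11, adjusted p = 0.955, limma). The beta chain H2-DMb1 was at 1912, 1825 and 1982 in control livers and at 1275, 2072 and 1855 in Blnc1 LKO livers. H2-DMb1 thus had both its lowest and its highest value in the LKO group, and its log2 fold change of -0.17 (95% interval -0.52 to 0.19, adjusted p = 0.973, limma) turned to 0.04 without Blnc1 LKO liver 1, where that of H2-DMa was -0.02.

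H2-DMb2, the scarce copy of the beta chain, did not share the low value that the other members had in Blnc1 LKO liver 1. It was at 84.8, 91.6 and 92.7 in control livers and at 84.5, 87.4 and 65.2 in Blnc1 LKO livers, so its lowest value was in Blnc1 LKO liver 3, and liver 1 was next to control liver 1. Its values rest on 71 to 93 reads per liver, where counting alone gives an error of 10.9%, and the log2 fold change was -0.19 (95% interval -0.59 to 0.21, adjusted p = 0.973, limma) and -0.25 without Blnc1 LKO liver 1. Summed with H2-DMb1 into 1 row, since their reads can be confused, the log2 fold change was -0.17 (adjusted p = 0.973, limma).

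Ciita had the largest difference of the 8. It was at 1071, 867 and 1040 in control livers and at 618, 933 and 911 in Blnc1 LKO livers. Control liver 2 was under both Blnc1 LKO livers 2 and 3, so the groups overlapped. The log2 fold change was -0.29 (95% interval -0.66 to 0.07, adjusted p = 0.927, limma), and -0.10 without Blnc1 LKO liver 1.

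**Figure D1:**
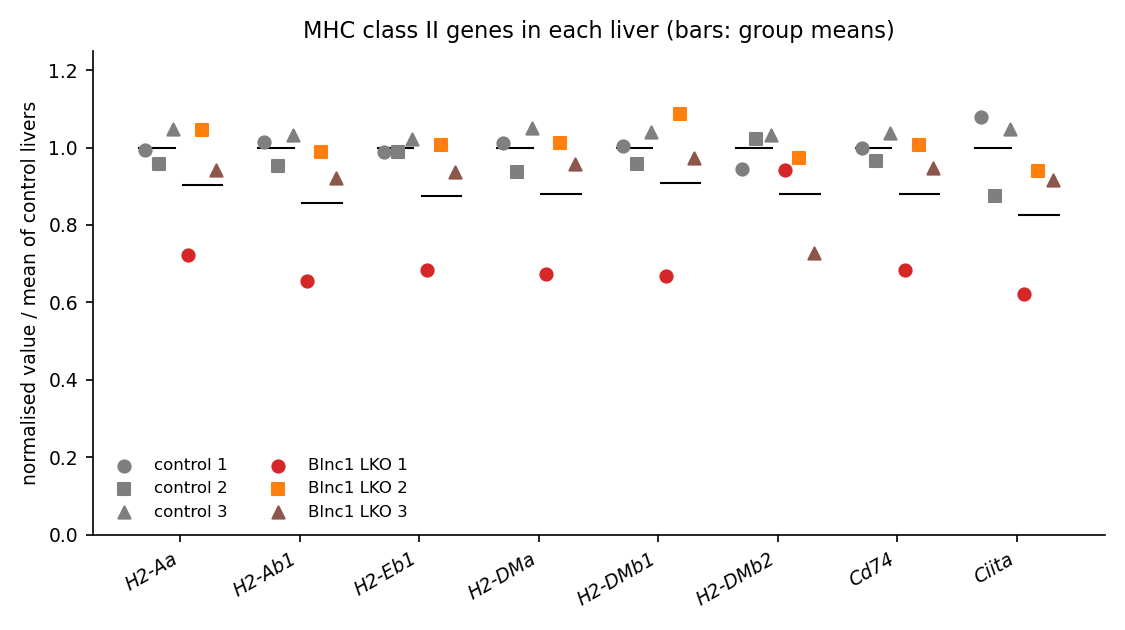
Normalised value of each class II gene in each of the 6 livers, divided by the mean of the 3 control livers (vertical axis, linear from 0; points, livers; horizontal bars, group means). Blnc1 LKO liver 1 (red circles) is at 0.622 to 0.722 for every gene but H2-DMb2, while Blnc1 LKO liver 2 is at 0.940 to 1.09 for the same 7 genes.

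**Figure D2:**
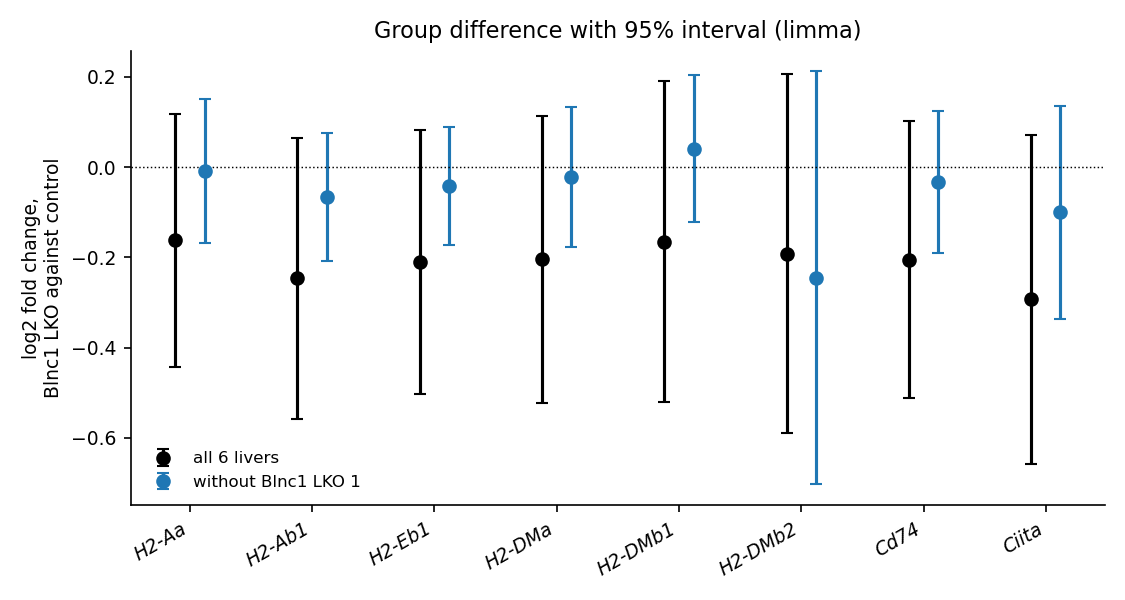
Log2 fold change of each class II gene, Blnc1 LKO against control, from limma with all 6 livers (black) and without Blnc1 LKO liver 1 (blue), with bars for 95% intervals. All 16 intervals include 0, and without that liver the estimates of the genes other than H2-DMb2 move towards 0.

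The lower means thus came mostly from a single mouse. Blnc1 LKO liver 1 was the lowest of the 6 for 7 of the 8 members, where it was the lowest for 24.1% of all genes. For the same 7 members it was at least 0.25 (log2) under the next lowest liver, which was so for 5.93% of all genes (a limit chosen after the values were seen). Relative to the control mean, these 7 genes had a median of 0.673 in Blnc1 LKO liver 1, 1.01 in liver 2 and 0.943 in liver 3, and of 0.957 to 1.04 in the control livers. Summed over the 8 members, they took 1187 CPM of the reads in Blnc1 LKO liver 1, against 1909 and 1696 CPM in Blnc1 LKO livers 2 and 3 and 1752 to 1866 CPM in control livers. Control liver 3 was the highest of the 6 for 6 of the 8 members. Leaving out each liver separately, the members' median log2 fold change was between -0.31, without Blnc1 LKO liver 2, and -0.04, without Blnc1 LKO liver 1. In the fit without liver 2, 4 members had an unadjusted p under 0.05, with a smallest adjusted p of 0.413 (limma). In bulk RNA, fewer class II cells and less class II mRNA per cell cannot be told apart.

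While the levels moved between livers, the proportions among the members were nearly fixed. Levels had a coefficient of variation over the 6 livers of 11.8% (H2-DMb2) to 17.8% (Ciita). Divided by the Cd74 reads of the same liver, H2-Eb1 varied by 1.41%, H2-DMa by 1.67%, H2-Ab1 by 1.97%, H2-Aa by 2.63% and H2-DMb1 by 3.54%. Ciita, with fewer reads, varied by 6.96% in this ratio, and H2-DMb2 by 19.8%, more than its own level did. The H2-Eb1 to Cd74 ratio shows how little Blnc1 LKO liver 1 differed here: it was 0.385, 0.398 and 0.383 in control livers and correspondingly 0.389, 0.389 and 0.384 in Blnc1 LKO livers. Likewise H2-DMa to Cd74 was 0.0394, 0.0378 and 0.0393 in control and 0.0383, 0.0390 and 0.0392 in Blnc1 LKO livers. Over all 21 pairs of the 7 members other than H2-DMb2, Pearson's r across the 6 livers was 0.921 to 0.997 (median 0.985), and 0.373 to 0.955 (median 0.838) without Blnc1 LKO liver 1. The 7 pairs with H2-DMb2 had r from 0.0637 to 0.165, and from 0.238 to 0.921 (median 0.619) without Blnc1 LKO liver 1. These correlations are descriptions over 6 livers that share size factors, and they rest in good part on that 1 liver.

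**Figure D3:**
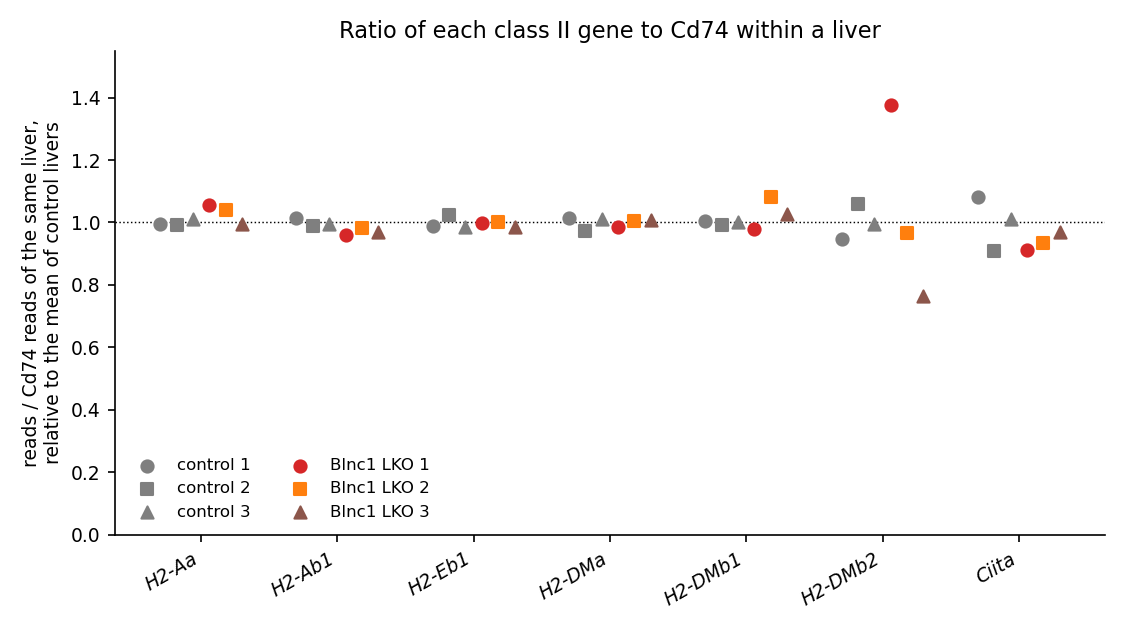
Reads of each class II gene divided by the Cd74 reads of the same liver, relative to the mean of the control livers (vertical axis, linear from 0; points, the 6 livers). Blnc1 LKO liver 1 (red circles) lies close to the other livers for H2-Aa, H2-Ab1, H2-Eb1, H2-DMa, H2-DMb1 and Ciita, and above them for H2-DMb2.

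Of 12 ratios computed between members, 2 had groups that did not overlap, and both involved the I-A beta chain, so they are not independent. For single genes, 5.28% of all tested were lower and 5.35% higher without overlap. The 12 ratios include Ciita to Cd74 in both directions, which is the same comparison. H2-Ab1 to H2-Aa was 0.769, 0.750 and 0.744 in control livers, against 0.686, 0.714 and 0.737 in Blnc1 LKO livers, with means of 0.755 ± 0.0131 and 0.712 ± 0.0255 (SD, n = 3 each). All 3 Blnc1 LKO livers were under all 3 control livers, and the lowest was Blnc1 LKO liver 1. H2-Ab1 to Cd74 was 0.368, 0.358 and 0.361 in control and 0.348, 0.356 and 0.352 in Blnc1 LKO livers. Both ratios gave p = 0.1 in a two-sided exact permutation test, the smallest that 3 against 3 livers allow, and 0.6 after Benjamini-Hochberg adjustment over the 12 ratios. The ratios of H2-DMb1 to H2-DMa (0.848 ± 0.0148 and 0.872 ± 0.0359) and of Cd74 to Ciita (58.8 ± 5.26 and 62.3 ± 1.90) overlapped between groups (SD, n = 3 each).

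The remaining class II genes of the table did not share the low values of Blnc1 LKO liver 1. H2-Oa and H2-Ob, which form the H2-O heterodimer that restrains H2-DM, and H2-Eb2, a second I-E beta gene, were listed. The I-E alpha gene, sought as H2-Ea and H2-Ea-ps, was not among the rows used here. The values therefore show no alpha chain partner for H2-Eb1. H2-Ob, typical of B cells, was at 255, 211 and 246 in control livers and at 273, 265 and 254 in Blnc1 LKO livers, with liver 1 the highest of all. H2-Oa was at 73.7, 57.5 and 55.4 in control and 67.8, 83.6 and 71.0 in Blnc1 LKO livers, and H2-Eb2 was at 106, 71.4 and 86.3 against 72.6, 93.0 and 61.8. None of these 3 genes was called (smallest adjusted p = 0.968, limma), 2 had higher and 1 had lower mean values, and their levels in control livers, 1.20 RPKM for H2-Ob, 0.770 for H2-Oa and 0.349 for H2-Eb2, were near that of H2-DMb2.

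Among the regulators, the promoter factors had no common direction. Of 7 genes (Rfx5, Rfxap and Rfxank, subunits of the X box factor RFX; Nfya, Nfyb and Nfyc, subunits of the Y box factor NF-Y; and Creb1), 0 were called, 3 had lower and 4 had higher means, and the median log2 fold change was 0.00. Rfxap had the smallest p of the 7, at 885, 919 and 929.9 in control and 998, 924 and 1016 in Blnc1 LKO livers (log2 fold change 0.10, adjusted p = 0.952, limma). Creb1 and Rfxank followed, with log2 fold changes of -0.09 and 0.05. Blnc1 LKO liver 1 was the lowest for 3 of the 7 and by at least 0.25 for 0 of them.

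The interferon gamma pathway that leads to Ciita had 7 of 10 genes with lower means and 0 called, with a median of -0.07. Lower without overlap were 2 of the 10 (5.28% of all genes), and 1 was lower at an unadjusted p under 0.05 in limma (2.74%). Blnc1 LKO liver 1 was the lowest for 6 of the 10 and by at least 0.25 (log2) for 2 of them. The receptor-bound kinase gene Jak1 was without overlap, at 10843, 11108 and 10847 against 10302, 9895 and 10349.5 (log2 fold change -0.10, adjusted p = 0.891, limma). Irf1, a transcription factor that acts on the Ciita promoter, averaged 3808 ± 128 over control and 3631 ± 76.5 over Blnc1 LKO livers (SD, n = 3 each). Irf8, a transcription factor of dendritic cells and macrophages, was lowest in the same liver as 7 of the class II genes, with 1686 in Blnc1 LKO liver 1 and 2234 to 2328 in the other livers.

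Other targets of interferon gamma were lower in a different arrangement of livers. In the list of 10 interferon-induced GTPase and chemokine genes all 10 had lower means, 5 had an unadjusted p under 0.05 and 5 were without overlap (2.74% and 5.28% of all genes), and the median log2 fold change was -0.18, and -0.21 without Blnc1 LKO liver 1. That liver was the lowest for 2 of the 10. DESeq2 called 3 of them, none of which limma called. Gbp2, a guanylate-binding protein gene, was at 1879, 1802 and 2097 in control and 1352, 1454 and 1440.4 in Blnc1 LKO livers (log2 fold change -0.44, adjusted p = 0.355 in limma and 9.2e-04 in DESeq2). Cxcl9, a chemokine gene that draws activated T cells, was at 3695, 3636 and 3764 against 3039, 2916 and 2538 (adjusted p = 0.506 in limma and 0.00499 in DESeq2), and Igtp was at 4009, 3746 and 4396 against 3247, 3078 and 2976 (adjusted p = 0.483 and 0.00445). For Gbp2, Cxcl9 and Igtp every Blnc1 LKO liver was under every control liver, whereas for the class II members Blnc1 LKO liver 2 was within the control range for 7 of the 8 and above it for H2-DMb1.

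Genes of endosomal processing had 11 of 12 lower means, 0 called and a median log2 fold change of -0.06. Ctss, the protease that trims the invariant chain in professional antigen-presenting cells, was at 18492, 17280.4 and 19220.4 in control livers and at 14231, 17793 and 18160 in Blnc1 LKO livers (log2 fold change -0.14, adjusted p = 0.959, limma). It had its gap at the same liver as the members, though a smaller one, and the Cd74 to Ctss ratio was 2.78 in Blnc1 LKO liver 1 against 3.03 to 3.28 elsewhere. Ifi30, the thiol reductase that opens disulphide bonds of antigens, and Lgmn, an asparagine-specific protease, were also lowest in Blnc1 LKO liver 1, at 3167 and 12097, against 3688 to 4044 and 14041 to 16090 in the other livers. Of the 12 genes, Blnc1 LKO liver 1 was the lowest for 7, by at least 0.25 (log2) for 1, and the highest for 2. Over all genes these shares were 24.1%, 5.93% and 25.5%.

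MHC class I presentation, which nearly all nucleated cells use, had small differences. Of 16 genes, 13 had lower means, 0 were called and the median log2 fold change was -0.07. H2-K1, a class I heavy chain with near copies in the genome, was at 122484, 122134 and 118261 in control and 112607, 118616 and 115521 in Blnc1 LKO livers, and Nlrc5, the class I counterpart of Ciita, was at 2458, 2649 and 2639 against 2435, 2709 and 2506. The 3 genes of smallest p were Psmb8, an immunoproteasome subunit (log2 fold change -0.13), Tapbp, the tapasin of the peptide-loading complex (-0.11), and Psme1, a proteasome activator subunit (-0.07), with adjusted p of 0.899, 0.927 and 0.951 in limma. Blnc1 LKO liver 1 was the lowest for 9 of the 16 and by at least 0.25 (log2) for 0 of them.

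In the list of costimulation genes and receptors that meet class II on T cells, 6 of 10 means were lower and 0 were called. Lag3, an inhibitory receptor that binds class II, was at 258, 248 and 219 in control livers and at 143, 228 and 179 in Blnc1 LKO livers (log2 fold change -0.42, adjusted p = 0.870, limma), and -0.26 without Blnc1 LKO liver 1. Cd274, which encodes the inhibitory ligand PD-L1, and Icos, a costimulatory receptor of T cells, had log2 fold changes of -0.15 and 0.29 (adjusted p = 0.927 and 0.930, limma). Cd86, a ligand of Cd28 on antigen-presenting cells, was at 845 ± 50.4 and 845 ± 77 (SD, n = 3 each).

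**Figure D4:**
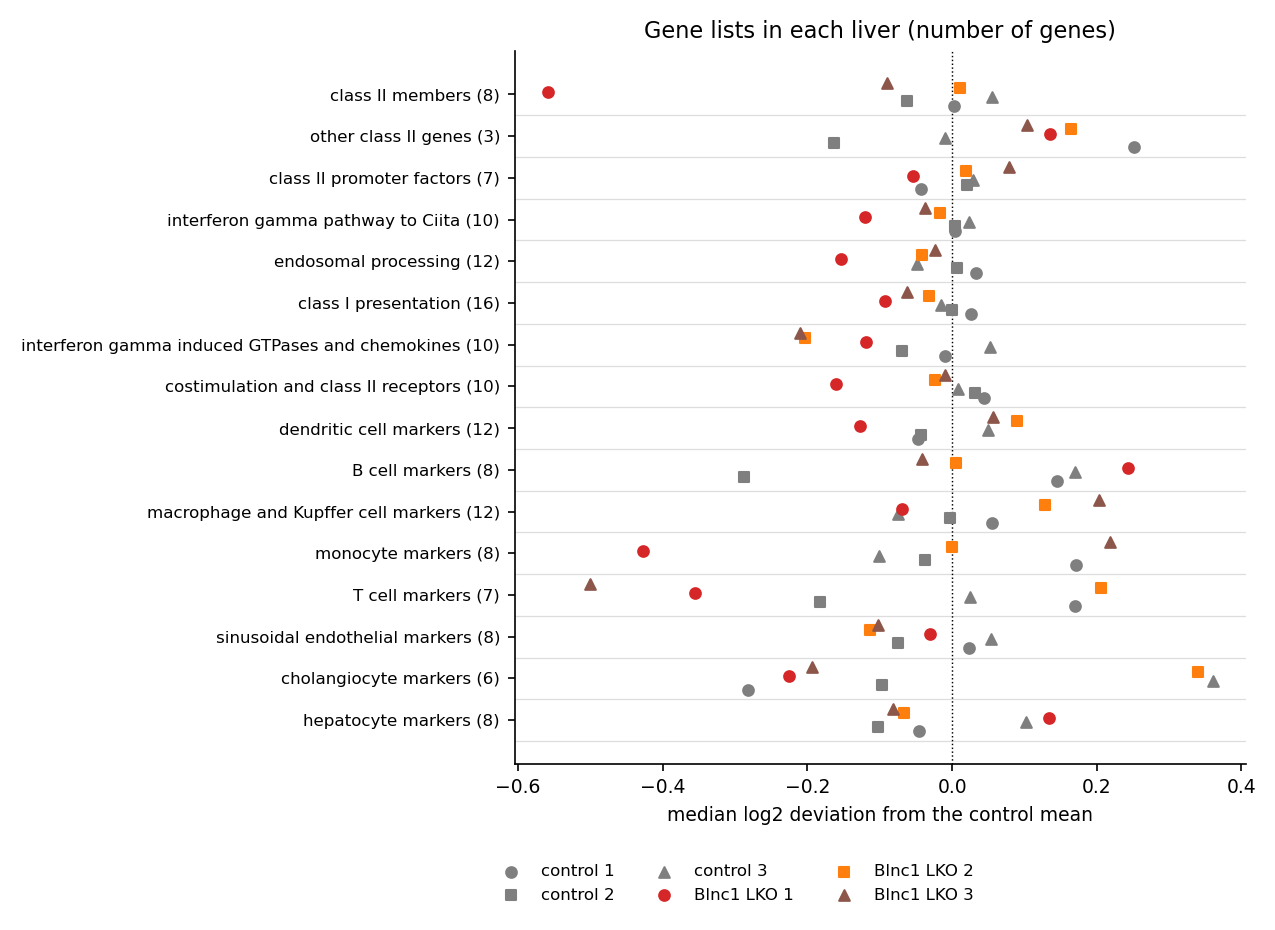
Median over the genes of each list of log2(value + 1) minus its mean in control livers (horizontal axis), for each of the 6 livers (points). In the class II row Blnc1 LKO liver 1 (red circle) is at -0.56 and the other livers are between -0.09 and 0.06, while in the row of interferon-induced GTPases and chemokines Blnc1 LKO livers 2 and 3 are lowest, at -0.20 and -0.21.

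Because class II genes are carried by few cell types, markers of these types were read in the same livers. No marker of any list was at 0 in any liver, and none was called in either direction by limma or DESeq2. Dendritic cell markers had 6 of 12 means lower, Blnc1 LKO liver 1 was the lowest for 6 of the 12 and by at least 0.25 (log2) for 3 of them, and those of smallest p were Ly6d (log2 fold change -0.49, adjusted p = 0.840, limma), Cd209a (0.36) and Fscn1 (-0.15). Ly6d was at 4326 to 9190 over the 6 livers, above every other marker of the list, and which cells carried it was not tested. Itgax, which encodes CD11c, was at 2152, 2125 and 2341 in control livers and at 1428, 2408 and 2532 in Blnc1 LKO livers. The lowest value was that of Blnc1 LKO liver 1, as for 7 of the class II genes, but livers 2 and 3 were the highest of the 6, and without liver 1 the log2 fold change was 0.16. The Cd74 to Itgax ratio was 27.7 in that liver and 21.7 to 26.9 elsewhere. Flt3 (168 against 186 to 256), Batf3 (132 against 138 to 231) and Ccr7 (208 against 214 to 281) were also lowest in that liver, whereas Zbtb46 (283 against 261 to 331), Xcr1 (198 against 185 to 212) and Clec9a (345 against 287 to 567) were within the range of the others.

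Macrophage markers were divided. Cd68, a lysosomal glycoprotein of macrophages, was at 2968 in Blnc1 LKO liver 1 and at 3947 to 4022 in the others, and Cd74 to Cd68 was 13.3 there and 13.7 to 15.2 elsewhere. The complement gene C1qa was also lowest in that liver (9221 against 10450.1 to 11900). In contrast Adgre1, which encodes F4/80, was at 4867 in that liver and at 4393 to 5287 in the others, and Cd74 to Adgre1 was 8.14 there against 10.4 to 13.7. The means of the 3 genes of smallest p were all higher, with log2 fold changes of 3.03 for Marco, 1.04 for Vsig4 and 0.15 for Adgre1 (adjusted p = 0.577, 0.737 and 0.840, limma). The Kupffer cell genes Marco and Timd4 had their highest value in that same liver, 794 against 23.4 to 509 and 628 against 109 to 257. Over the 12 macrophage and Kupffer cell markers 8 means were higher and 4 lower, 5 were higher at an unadjusted p under 0.05 (2.94% of all genes) and 2 were higher without overlap (5.35% of all genes).

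Monocyte markers had 4 of 8 means lower and 4 higher, with a median log2 fold change of 0.01, and 0.12 without Blnc1 LKO liver 1. That liver was the lowest for 6 of the 8. Ccr2, the chemokine receptor of inflammatory monocytes, was at 2344, 2185 and 2423 in control livers and at 1620, 1934 and 1994 in Blnc1 LKO livers, without overlap (log2 fold change -0.33, adjusted p = 0.619, limma). Cx3cr1 was at 1160 in Blnc1 LKO liver 1 and at 1414 to 1911 in the others, and Plac8 was at 2052 against 2154 to 2834. The higher means were those of Ly6c2 (log2 fold change 0.12), Chil3 (0.10), S100a8 (1.04) and S100a9 (1.06). S100a8 and S100a9, calcium-binding proteins of neutrophils and monocytes, had log2 fold changes of 1.87 and 1.74 without Blnc1 LKO liver 1, with their highest values, 1705 and 2326, in Blnc1 LKO liver 3. Among B cell markers Blnc1 LKO liver 1 was the lowest for 0 of 8 genes. The B cell genes of smallest p were Cd79b (log2 fold change 0.32), Blk (-0.22) and Cd22 (-0.12). T cell markers had lower means for 7 of 7 genes, with a median of -0.16, and were low in Blnc1 LKO livers 1 and 3. The T cell receptor complex genes Cd247, Cd3e and Cd3d had log2 fold changes of -0.44, -0.29 and -0.16 (smallest adjusted p = 0.891, limma).

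Among markers of the parenchyma and its vessels, hepatocyte markers had 3 of 8 means lower, and Blnc1 LKO liver 1 was the highest for 4 of the 8. Serpina1a, Tat and Cps1 had the smallest p of these, with log2 fold changes of 0.19, -0.19 and -0.21. The Cd74 to Alb ratio was 0.00851 in that liver and 0.0138 to 0.0147 in the others. Sinusoidal endothelial markers had 6 of 8 means lower (50.4% of all genes). Of the 8, 3 were lower at an unadjusted p under 0.05 in limma (2.74% of all genes) and 2 without overlap (5.28%). Lyve1 was at 1340.02, 1512 and 2050.4 in Blnc1 LKO livers against 2506, 2019 and 2697 in control livers. The log2 fold changes were -0.17 for Pecam1 and -0.15 for Stab1. Cholangiocyte markers had 4 of 6 means lower, with log2 fold changes of -0.06 for Sox9 and -0.04 for Krt7. The part that these cell types had in the class II values was not tested.

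The genes whose values over the 6 livers were most like those of the members were named by Pearson's r of log2(value + 1) with the mean standardised log2 value of the members, among 12481 genes with a mean of at least 100. The 8 highest were Nckap5l (0.995), Ramp2 (0.994), Rpl27 (0.994), Ccdc120 (0.993), Hk3 (0.992), Asf1b (0.988), Slc7a6 (0.988) and Bcl2a1b (0.988), and 2.94% of the genes compared had an r of at least 0.9. Hk3, a hexokinase of myeloid cells, was at 1242, 1139 and 1253 in control and 854, 1188 and 1092 in Blnc1 LKO livers. Rpl27, a ribosomal protein gene, had the order of livers of the members' mean standardised value. Its range was narrow, 3555 in Blnc1 LKO liver 1 and 3884 to 4099 in the others. The 6 points share their libraries and size factors, and Blnc1 LKO liver 1 is far from the other 5.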

How the data were processed

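Liver polyA mRNA from 3 control and 3 Blnc1 LKO mice was sequenced (TruSeq v2). Per the submitters' processing notes, FastQC, STAR, HTSeq and DESeq2 were used with mm10. Versions, annotation and strand setting are not given in the sources used here. The signal deposited by the authors is the read count per gene divided by a size factor per liver. Dividing by the value of 1 read gave whole reads for 100% of values (tolerance 0.01). Columns were matched to livers by group and number.

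limma 3.58.1 (R 4.3.3; lmFit, eBayes with trend) was fitted to log2(value + 1) for the 17297 genes that reached a value of 1 in 3 or more livers, with Benjamini-Hochberg adjustment over all of them and a threshold of 0.05. Fold changes are on that scale, which understates low genes. Alternatives were DESeq2 1.42.0 and edgeR 4.0.16 on the recovered reads, voom, a pseudocount of 0.1, other filters and thresholds, a replicate block, each liver left out in turn, and H2-DMb1 and H2-DMb2 summed. The fits were tested on simulated counts with changes much larger than the members' differences. That test says nothing about differences as small as theirs. RPKM used GENCODE M21 transcripts, and promoter windows came from RefSeq. Genes named outside the members were the 3 of smallest p per list (some are not reported here), the genes most like the members, and others chosen after their values were seen. The members and lists were chosen with earlier results of these data known. 23 gene symbols read as dates, so the class II ubiquitin ligase gene March1 was not matched.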

Additional observations from a re-analysis of the deposited data

How the results depend on the processing

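No member was called under any of the alternatives fitted, and the median log2 fold change of the members kept its sign, from -0.31 without Blnc1 LKO replicate 2 to -0.04 without Blnc1 LKO replicate 1. H2-DMb1 alone changed sign, to 0.041 without Blnc1 LKO replicate 1, and ranged from -0.31 to 0.041 over the livers left out. Of the genes of the pathway and marker lists, limma called 0, DESeq2 3 and DESeq2 with the replicate block 4. Over all genes limma called 1, limma with the replicate block 0, edgeR 2, DESeq2 84 and DESeq2 with the block 64, and leaving out each liver gave 0 to 13. The cause was not tested. Livers of the same number deviated from their group means with correlations of -0.06, -0.02 and -0.11. No sign that the numbers pair the mice was seen in these, but 3 livers per group cannot decide it. Members with an unadjusted p under 0.05 numbered 4 without Blnc1 LKO replicate 2 and 1 in DESeq2 with the block, against 0. Depth limits H2-DMb2, with under 100 reads per liver, and 3 livers per group limit the rest, with 95% intervals of the members' log2 fold changes reaching from -0.66 to 0.21.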
